A study of Mus musculus with 16 samples.

Results

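Mesenchymal transcription factors were followed through the first days of reprogramming of mouse embryonic fibroblasts (MEFs), as the 10 genes *Snai1*, *Snai2*, *Zeb1*, *Zeb2*, *Twist1*, *Twist2*, *Prrx1*, *Prrx2*, *Runx1* and *Runx2*. They were taken by symbol from the deposited expression table, as 5 pairs of paralogs, and no expression cutoff was applied. The choice was made with earlier results of these data known. All 10 were among the 18990 genes of the table, and all 10 were among the 14028 genes tested. The study asked what depletion of the chromatin factors *Wdr5*, *Brca1* and *Bard1* does to cells that are losing fibroblast identity. Primary wild-type BL6 MEFs received lentiviruses that carry the doxycycline-inducible tet-STEMCCA cassette (*Oct4*, *Sox2*, *Klf4* and *c-Myc*) and its activator rtTA, and they were reprogrammed at passage 2. Before the cassette was switched on, they were transfected with pooled siRNAs against *Wdr5* (siWdr5), *Brca1* (siBrca1) or *Bard1* (siBard1), or with a non-targeting siRNA (nt control). RNA was collected at day 3 and day 6, from 2 libraries per group and 16 libraries in all. All 8 groups shared the cassette, doxycycline, LIF, serum, ascorbic acid, the GSK3 inhibitor chiron and Alk5i, an inhibitor of the TGF-β receptor. Thus none of the groups was free of reprogramming factors or of TGF-β receptor inhibition, and no unreprogrammed MEFs were analysed here.

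SNAI and ZEB proteins are zinc-finger repressors that bind E-boxes in epithelial genes such as *Cdh1* and, with the basic helix-loop-helix proteins TWIST1 and TWIST2, drive the transition of epithelial cells to mesenchymal cells. PRRX1 and PRRX2 are homeodomain proteins of embryonic limb and craniofacial mesenchyme, RUNX1 is a regulator of blood stem cells that is also active in mesenchymal cells, and RUNX2 is the main regulator of bone-forming cells. Reprogramming of fibroblasts runs in the opposite direction, through a mesenchymal-to-epithelial transition in which fibroblast genes are silenced and epithelial genes such as *Cdh1* and *Epcam* are switched on.

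The promoters of *Snai1*, *Runx1* and *Runx2* are shown because they carry E-boxes or runt-domain core motifs, the kinds of sequence that members of these families bind. Sequences are from RefSeq (GRCm38.p6), on the strand of the gene and from 250 bases before to 50 after the annotated start, where 8 of the 10 symbols were found. Capitals mark the E-box CAGGTG bound by SNAI and ZEB factors and the runt core TGTGGT, both searched on either strand and thus also as CACCTG and ACCACA. Of the promoters of *Snai1* (chr2:167537945-167538244, plus strand) and *Runx2* (chr17:44814578-44814877, minus strand) and the distal promoter of *Runx1* (chr16:92826025-92826324, minus strand), the printed windows read as follows.
Snai1: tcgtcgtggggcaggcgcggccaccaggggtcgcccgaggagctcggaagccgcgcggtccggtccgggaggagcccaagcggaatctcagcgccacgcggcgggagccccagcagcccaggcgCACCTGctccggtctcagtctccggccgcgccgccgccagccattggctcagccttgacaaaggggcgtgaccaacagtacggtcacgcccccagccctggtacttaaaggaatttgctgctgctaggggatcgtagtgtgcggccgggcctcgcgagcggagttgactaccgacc
Runx1 distal: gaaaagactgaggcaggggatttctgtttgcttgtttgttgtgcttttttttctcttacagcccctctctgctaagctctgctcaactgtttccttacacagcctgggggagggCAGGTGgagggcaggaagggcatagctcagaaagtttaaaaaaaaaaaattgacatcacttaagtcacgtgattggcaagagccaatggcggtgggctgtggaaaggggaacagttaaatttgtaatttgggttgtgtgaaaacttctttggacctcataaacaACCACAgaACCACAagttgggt
Runx2: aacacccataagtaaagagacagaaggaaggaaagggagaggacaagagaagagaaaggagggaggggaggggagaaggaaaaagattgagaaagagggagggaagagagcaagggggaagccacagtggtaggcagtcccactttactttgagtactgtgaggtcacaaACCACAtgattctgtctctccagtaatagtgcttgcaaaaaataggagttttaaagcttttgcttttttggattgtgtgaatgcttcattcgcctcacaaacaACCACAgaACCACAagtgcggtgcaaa

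The *Snai1* window held 1 CAGGTG match, which began at −126 from the start, and the distal *Runx1* window held 1 that began at −136. The E-box was present in 20.2% of all 32851 promoter windows of this length. The distal *Runx1* window held 2 runt cores and the *Runx2* window 3, against 16.8% of all windows with at least 1. The last 2 cores lay just after the start in both genes and were separated by the same 2 bases, within an identical stretch of 22 bases. When the windows were aligned on these cores without gaps, 104 of 295 bases were identical. The windows of *Prrx1*, *Prrx2*, *Twist1*, *Twist2* and *Zeb2* and the proximal window of *Runx1* held neither motif, and that of *Prrx1* held 1 copy of the homeodomain core TAATTA, found in 5.29% of windows. These matches describe the letters of the windows, and binding was not measured.

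In the mm10 annotation of GENCODE (vM21), *Snai1* lies on chromosome 2 at 167538195 to 167542814, *Snai2* on chromosome 16 at 14705852 to 14709385, and *Twist1* on chromosome 12 at 33957671 to 33959829. *Prrx1* and *Twist2* lie on chromosome 1, at 163245119 to 163313710 and 91801461 to 91848028. *Prrx2* and *Zeb2* lie on chromosome 2, at 30834972 to 30881251 and 44983632 to 45117395. *Runx1* spans 92601466 to 92826149 on chromosome 16 and *Runx2* spans 44495987 to 44814797 on chromosome 17. Exons of an antisense gene, *Gm29100*, cover 46.5% of the exon bases of *Twist2*. Other antisense genes cover 5.87% of *Runx2* (*Runx2os1*), 3.27% of *Zeb2* (*Zeb2os*), 1.93% of *Zeb1* and 0.881% of *Runx1*. Whether reads were counted by strand is not given in the sources used here, so reads of these genes and of their antisense partners cannot be told apart, and the values of *Twist2* are the most uncertain in this respect.

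Libraries held 11169738 to 26832534 reads, and a member had at least 156 reads in every library. The siRNAs had lowered their targets at day 3. CPM are reads of a gene scaled to an effective library size, which differs from the read total. *Wdr5* stood at 131.7 and 130.5 CPM in the nt control libraries and at 50.6 and 55.3 CPM in siWdr5. *Brca1* stood at 82.4 and 78.0 against 37.5 and 19.4 CPM in siBrca1, and *Bard1* at 30.5 and 29.1 against 18.01 and 20.8 CPM in siBard1. On the log2 scale these are differences of −1.31 (adjusted p = 3.02e-06), −1.57 (adjusted p = 7.90e-05) and −0.62 (adjusted p = 0.0422), and *Brca1* and *Bard1* RNA was also lower in siWdr5 (−0.86 and −1.03). At day 6 the targets were not lower by the test, with −0.27 for *Wdr5* in siWdr5 (adjusted p = 0.189), 0.01 for *Brca1* in siBrca1 and 0.11 for *Bard1* in siBard1. All 8 fibroblast markers (*Col1a1*, *Col1a2*, *Col3a1*, *Pdgfra*, *Pdgfrb*, *Thy1*, *Dcn* and *Lum*) were present, with summed levels from 3915 to 11770 CPM. Blood markers summed to at most 24.1 CPM and endothelial markers to at most 59.9 CPM.

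Before any comparison, the members differed in level in the nt control at day 3. Per kilobase of exon, *Twist1* was highest at 35.3 ± 3.83 CPM (SD, n = 2), followed by *Prrx2* at 29.5 ± 3.60, *Snai1* at 27.7 ± 1.05 and *Prrx1* at 21.7 ± 0.302 CPM per kilobase. The other members were clearly lower, at 7.51 ± 0.492 for *Zeb1*, 7.09 ± 0.957 for *Snai2*, 5.68 ± 0.180 for *Runx1*, 4.31 ± 0.0360 for *Zeb2*, 4.19 ± 0.155 for *Runx2* and 3.30 ± 0.00738 CPM per kilobase for *Twist2*. Neighbours whose libraries overlapped, and which do not differ beyond their spread, were *Prrx2* and *Snai1*, *Zeb1* and *Snai2*, and *Zeb2* and *Runx2*. Hence the 2 members of the Twist and of the Snai pair stood far apart, while the Runx paralogs were within a narrow range. All further levels are in CPM, on the scale of the deposited values, and compare 1 gene between libraries.

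At day 3, 8 of the 10 mesenchymal transcription factors were higher in siWdr5 than in the nt control, namely all but *Twist1* and *Twist2*, and the same held in siBrca1. In siBard1, 5 members were higher: *Zeb1*, *Zeb2*, *Prrx1*, *Prrx2* and *Runx2*. No member fell in any of the 3 knockdowns. The test was limma on the log2 values of the 8 libraries of the day, two-sided, and a gene was called at a Benjamini-Hochberg adjusted p below 0.05 over all 14028 genes. By this rule 18.3% of all genes were higher in siWdr5, 25.4% in siBrca1 and 8.67% in siBard1, and 16.8%, 21.8% and 5.87% were lower. The median log2-fold change of the 10 members was 0.69, 0.87 and 0.41, while that of all genes was −0.04, 0.00216 and −0.02. With a required log2-fold change above 1, 2 members passed in siWdr5 (*Snai1* and *Snai2*; 7.05% of all genes in either direction), 3 in siBrca1 (*Zeb1*, *Prrx1* and *Prrx2*; 13.4%) and none in siBard1 (2.24%). The 3 comparisons share the nt control libraries and are therefore not independent of each other.

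**Figure D1:**
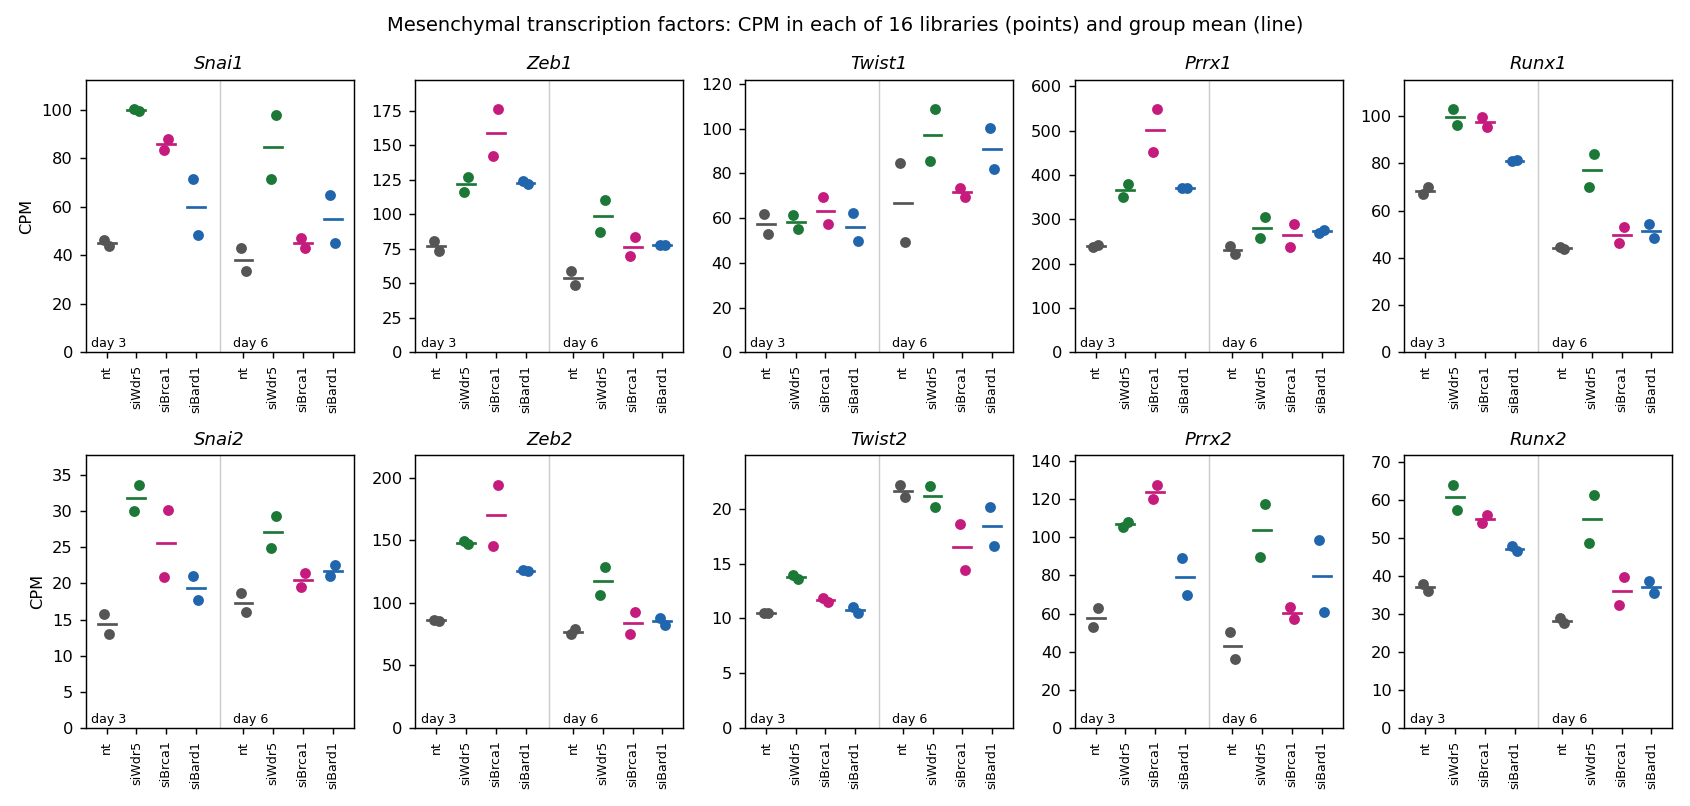
CPM of each member (vertical axes, linear from 0) in the 16 libraries, with nt control, siWdr5, siBrca1 and siBard1 along the horizontal axis at day 3 and at day 6. Points are libraries and lines are means of 2. At day 3 both libraries of each knockdown lay above both nt control libraries for 9 of the 10 members (34.9%, 38.8% and 30.2% of all genes in siWdr5, siBrca1 and siBard1), with *Twist1* as the exception.

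*Snai1*, the founding repressor of *Cdh1* in this family, stood at 46.2 and 43.8 CPM in the nt control at day 3. It reached 100.3 and 99.3 CPM in siWdr5, 83.6 and 87.9 CPM in siBrca1, and 71.5 and 48.4 CPM in siBard1. All knockdown libraries lay above both controls, but the second siBard1 library was close to them. The log2-fold change was 1.15 (SE 0.15, adjusted p = 8.19e-05) in siWdr5 and 0.93 (SE 0.15, adjusted p = 0.000199) in siBrca1, whereas in siBard1 it was 0.39, with a 95% interval from 0.07 to 0.70, and did not pass the test (adjusted p = 0.0894). Its paralog *Snai2*, also known as Slug, is far less abundant. *Snai2* was at 15.7 and 12.97 CPM in the nt control, 30.1 and 33.6 CPM in siWdr5, 20.9 and 30.2 CPM in siBrca1 and 21.0 and 17.6 CPM in siBard1. It rose by 1.16 in siWdr5 (SE 0.18, adjusted p = 0.000302) and by 0.81 in siBrca1 (SE 0.18, adjusted p = 0.00189), and its change of 0.43 in siBard1 (0.05 to 0.81) did not pass.

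The ZEB repressors act on many of the same epithelial genes as SNAI proteins and are themselves held in check by the miR-200 family. *Zeb1* stood at 80.7 and 73.5 CPM in the nt control, 116 and 127 CPM in siWdr5, 142 and 176 CPM in siBrca1 and 124 and 122 CPM in siBard1. Of the groups, siBrca1 had the highest mean of both paralogs, though its first library was level with siWdr5 for *Zeb2*. *Zeb2* was at 86.4 and 85.4 CPM in the nt control, 149 and 147 CPM in siWdr5, 146 and 194 CPM in siBrca1 and 126 and 125 CPM in siBard1. *Zeb1* rose by 0.66, 1.04 and 0.68 in siWdr5, siBrca1 and siBard1 (adjusted p = 0.000876, 1.89e-05 and 0.00253), and *Zeb2* by 0.78, 0.97 and 0.55 (adjusted p = 0.000364, 4.31e-05 and 0.0107).

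*Prrx1* was the member with most reads, at 238 and 243 CPM in the nt control. It reached 351 and 379.7 CPM in siWdr5, 452 and 549 CPM in siBrca1 and 370.5 and 371 CPM in siBard1. The rise was 1.05 in siBrca1 (SE 0.11, adjusted p = 1.21e-05), 0.61 in siWdr5 (adjusted p = 0.00114) and 0.63 in siBard1 (adjusted p = 0.00309). *Prrx2*, which overlaps with *Prrx1* in expression and function in limb and face mesenchyme, went from 52.8 and 62.8 CPM to 106 and 108 CPM in siWdr5, 120.2 and 128 CPM in siBrca1 and 88.9 and 69.7 CPM in siBard1. Its rise of 1.10 in siBrca1 (SE 0.13, adjusted p = 2.19e-05) was the steepest of any member there, followed by 0.89 in siWdr5 (adjusted p = 0.000187) and 0.45 in siBard1 (adjusted p = 0.0323).

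Both Runx genes rose in siWdr5 and siBrca1, and *Runx2* also in siBard1. *Runx1* stood at 66.8 and 69.9 CPM in the nt control, 103 and 96.2 CPM in siWdr5, 99.6 and 95.2 CPM in siBrca1 and 80.9 and 81.2 CPM in siBard1. It rose by 0.54 in siWdr5 (SE 0.10, adjusted p = 0.00111) and by 0.51 in siBrca1 (SE 0.10, adjusted p = 0.000892). In siBard1 its change of 0.25 (95% interval 0.03 to 0.46) did not pass. *Runx2* was at 38.0 and 36.1 CPM in the nt control, 64.0 and 57.3 CPM in siWdr5, 53.8 and 56.1 CPM in siBrca1 and 47.9 and 46.4 CPM in siBard1, with rises of 0.71, 0.57 and 0.35 (adjusted p = 0.00032, 0.000792 and 0.0475).

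The Twist genes stood apart at day 3. *Twist1*, which is needed for cranial and limb mesenchyme, was at 61.9 and 53.1 CPM in the nt control, 61.5 and 55.02 CPM in siWdr5, 69.5 and 57.2 CPM in siBrca1 and 62.2 and 49.7 CPM in siBard1. The groups overlapped in every comparison. Changes of *Twist1* were 0.02, 0.14 and −0.05 on the log2 scale, with 95% intervals of −0.28 to 0.32, −0.16 to 0.44 and −0.35 to 0.25. The sign of so small a change turned under quantile normalization in siWdr5 and when single libraries were left out. *Twist2* was at 10.5 and 10.5 CPM in the nt control and at 13.9 and 13.6 CPM in siWdr5, a change of 0.40 (95% interval 0.08 to 0.71) that just missed the threshold (adjusted p = 0.0505) and passed it in 6 of 14 alternatives. In siBrca1 (11.9 and 11.5 CPM) and siBard1 (11.1 and 10.5 CPM) its change was 0.15 and 0.04.

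**Figure D2:**
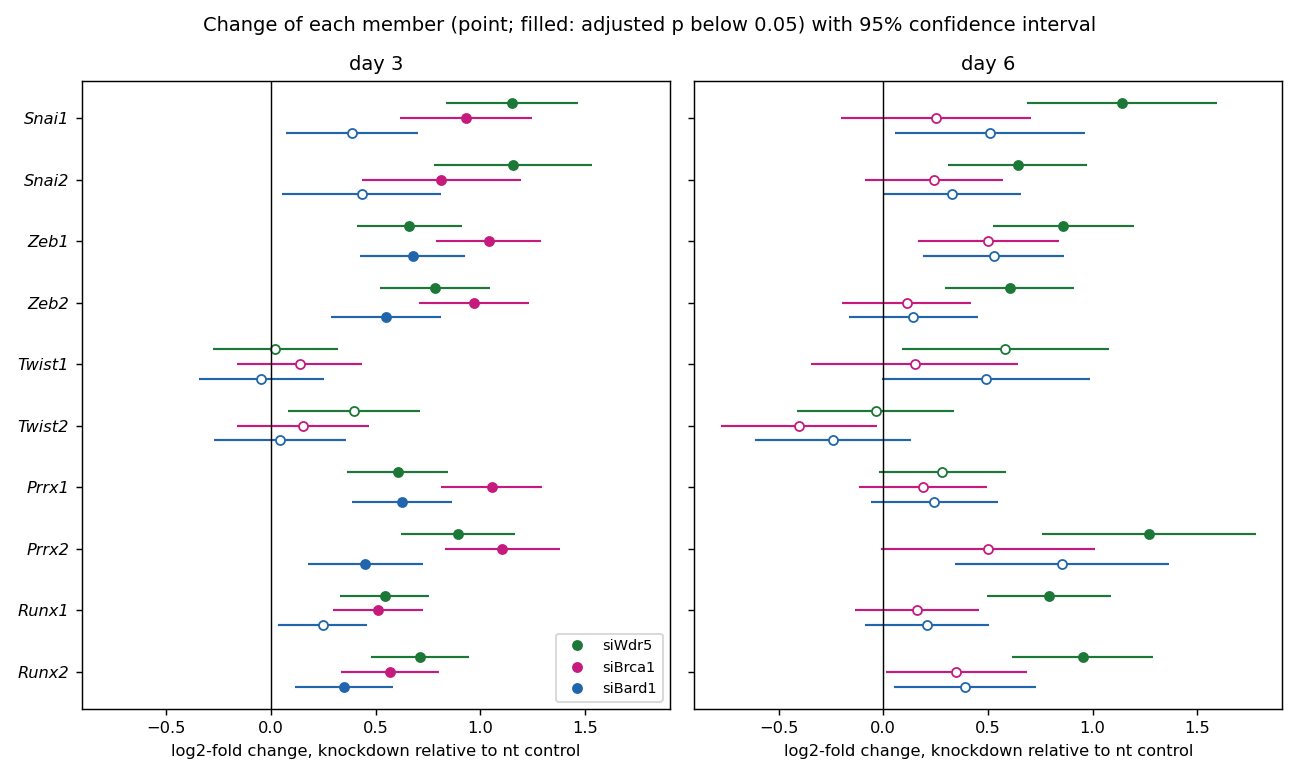
Log2-fold change of each member in siWdr5, siBrca1 and siBard1 relative to the nt control (horizontal axis) at day 3 and day 6, with 95% confidence intervals from limma. Filled points passed an adjusted p below 0.05. At day 3 filled points lie between 0.35 and 1.16, at day 6 they occur in siWdr5 alone, between 0.60 and 1.27.

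Leaving out any 1 of the 4 libraries compared left 8 members called in siWdr5 and 8 in siBrca1. In siBard1 fewer members were called without single libraries, and calls over all genes fell as well. The median log2-fold change of the members in siBard1 was 0.41 with all libraries. It was 0.41 without nt control replicate 1, 0.33 without nt control replicate 2, 0.29 without siBard1 replicate 1 and 0.56 without siBard1 replicate 2. The summed fibroblast markers at day 3 were 5797 to 6725 CPM in the nt control, 11448 to 11770 in siWdr5, 8569 to 9857 in siBrca1 and 7410 to 8631 CPM in siBard1. By the test 8, 4 and 0 of the 8 markers were higher (18.3%, 25.4% and 8.67% of all genes). Lower were 0, 1 and 1 (16.8%, 21.8% and 5.87%). A sum weighs abundant genes most. The median log2-fold change of the markers was 0.85, 0.24 and 0.15, below that of the members in siBrca1 and siBard1. The 6 epithelial markers (*Cdh1*, *Epcam*, *Krt8*, *Krt18*, *Cldn4* and *Esrp1*) summed to 44.9 to 67.1 CPM in the nt control, 21.0 to 21.4 in siWdr5, 24.3 to 37.0 in siBrca1 and 37.3 to 45.6 CPM in siBard1. Of the 6 muscle markers *Des* and *Chrna1* were in the table, and they summed to 31.4 to 40.7 CPM in the nt control, 139 CPM in both siWdr5 libraries, 165 to 172 CPM in siBrca1 and 75.3 to 89.1 CPM in siBard1. The part of these markers in the result was not tested. In bulk RNA, more cells of a mesenchymal type and more RNA per cell cannot be told apart.

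To see whether the knockdowns raised the members to the same extent, they were compared directly at day 3. Relative to siBrca1, siWdr5 cells had lower *Zeb1* (−0.38, SE 0.12, adjusted p = 0.0424) and lower *Prrx1* (−0.45, SE 0.11, adjusted p = 0.0158), and 10.2% of all genes were lower and 5.47% higher in this comparison. *Snai1* and *Snai2* were 0.22 and 0.34 higher in siWdr5 than in siBrca1, with intervals from −0.09 to 0.53 and from −0.04 to 0.72 that do not settle a direction. Relative to siBard1, siWdr5 cells had higher *Snai1* (0.76, adjusted p = 0.00686), *Snai2* (0.72, adjusted p = 0.0227) and *Prrx2* (0.44, adjusted p = 0.0463), with 4.85% of all genes higher and 3.78% lower. Relative to siBard1, siBrca1 cells had higher *Snai1* (0.54), *Zeb1* (0.36), *Zeb2* (0.42), *Prrx1* (0.43) and *Prrx2* (0.65), with adjusted p from 0.00524 to 0.0409 and 13.1% of all genes higher and 8.33% lower. None of these differences exceeded 1, as 4.73%, 2.05% and 3.01% of all genes did in the respective comparisons. These differences rested on single libraries: siWdr5 against siBrca1 lost both calls without either siWdr5 library and 1 without siBrca1 replicate 2. For siWdr5 against siBard1, 0 members were called without either siWdr5 library or without siBard1 replicate 2, and for siBrca1 against siBard1, 2 were called without siBrca1 replicate 2 or siBard1 replicate 1 and 0 without siBard1 replicate 2.

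At day 6, 7 of the 10 members were still higher in siWdr5 than in the nt control, namely *Snai1*, *Snai2*, *Zeb1*, *Zeb2*, *Prrx2*, *Runx1* and *Runx2*, while 16.1% of all genes were higher and 5.7% lower. The steepest rises were those of *Prrx2* and *Snai1*. *Prrx2* was at 50.1 and 36.3 CPM in the nt control and at 89.9 and 117 CPM in siWdr5 (log2-fold change 1.27, SE 0.23, adjusted p = 0.00724). *Snai1* was at 42.9 and 33.4 against 71.3 and 97.6 CPM (1.14, SE 0.20, adjusted p = 0.0068). Both exceeded a log2-fold change of 1, which 4.83% of all genes did together with the test.

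Among the other members at day 6, *Runx2* was at 28.9 and 27.6 CPM in the nt control and 48.7 and 61.3 CPM in siWdr5 (0.95, adjusted p = 0.0047), and *Runx1* at 44.7 and 43.8 against 70.1 and 83.9 CPM (0.79, adjusted p = 0.00565). *Zeb1* was at 59.2 and 49.1 against 86.9 and 110.3 CPM (0.86, adjusted p = 0.00649). The changes of *Snai2* (0.64, adjusted p = 0.0153) and *Zeb2* (0.60, adjusted p = 0.0148) were smaller. *Prrx1* was at 239 and 223 against 259 and 305 CPM, a change of 0.28 (−0.02 to 0.59) that did not pass. *Twist1* was at 84.5 and 49.3 against 85.8 and 109 CPM, without overlap but with a wide interval (0.58, 0.09 to 1.08, adjusted p = 0.0857), and *Twist2* overlapped between the groups (−0.04, −0.41 to 0.34). The calls at day 6 rested on 2 libraries: without nt control replicate 2 or without siWdr5 replicate 2, 0 members were called, and the calls over all genes fell from 3060 to 304 and to 38. The summed fibroblast markers were 3915 to 3942 CPM in the nt control and 7311 to 10386 CPM in siWdr5 at this day, and their part in the result was not tested. By the test 4 of the 8 markers were higher in siWdr5 and 0 lower, with a median log2-fold change of 0.39. The sums do not give the course of single markers: from day 3 to day 6 in the nt control, 4 rose and 2 fell (median 0.78).

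In siBrca1 and siBard1 no member was called at day 6. By limma 0% of all genes were called in siBrca1 and 0.0784% in siBard1, and limma-voom on the recovered reads likewise called 0 members. At an unadjusted p below 0.05 there were 3 members in siBrca1, with *Zeb1* (0.50) and *Runx2* (0.35) higher and *Twist2* (−0.40) lower, and 4 in siBard1 (*Snai1*, *Zeb1*, *Prrx2* and *Runx2*), all higher. Values were nevertheless mostly on the upper side: in siBrca1 both libraries lay above both controls for 6 members (21.9% of all genes) and in siBard1 for 8 (34.2%). *Twist2* went the other way, with both libraries below both controls in siBrca1 (−0.40) and in siBard1 (−0.24). *Snai1* was at 47.1 and 43.2 CPM in siBrca1 and 64.7 and 44.9 CPM in siBard1, with changes of 0.25 (−0.20 to 0.71) and 0.51 (0.06 to 0.96). *Prrx2* differed most between the siBard1 libraries, at 98.4 and 60.6 CPM (0.86, 0.34 to 1.37, adjusted p = 0.184), and it was called when siBard1 replicate 2 was left out.

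Direct comparisons of siWdr5 with the other knockdowns at day 6 were added after the values had been seen. Relative to siBrca1, siWdr5 cells had higher *Snai1* (0.89, SE 0.20, adjusted p = 0.0496) and *Runx1* (0.63, SE 0.13, adjusted p = 0.0442), with 1.5% of all genes higher, 1.35% lower and 0.855% past a log2-fold change of 1, which neither member reached. Without either siWdr5 library or without siBrca1 replicate 1, 0 members were called, and 1 was called without siBrca1 replicate 2. Relative to siBard1 no member was called (limma; 0.435% of all genes were higher and 0.157% lower), although 4 had an unadjusted p below 0.05 and the largest difference was that of *Snai1* (0.63, 0.18 to 1.08).

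Over time, the nt control cells lost part of their Runx and *Zeb1* RNA and gained *Twist2*. From day 3 to day 6, *Runx1* fell by 0.63 (SE 0.11, adjusted p = 0.00035), *Zeb1* fell by 0.51 (SE 0.14, adjusted p = 0.00708) and *Runx2* fell by 0.39 (SE 0.13, adjusted p = 0.0217), in a model of all 16 libraries in which 27.1% of all genes were lower. *Twist2* went from 10.5 and 10.5 to 22.2 and 21.1 CPM, a rise of 1.05 (SE 0.15, adjusted p = 5.07e-05; 19% of all genes were higher). The 3 falls and 1 rise among 10 members were close to the share of all genes that fell and below the share that rose. The other members were not called. Their changes were −0.25 for *Snai1*, 0.28 for *Snai2*, −0.16 for *Zeb2*, 0.17 for *Twist1*, −0.06 for *Prrx1* and −0.43 for *Prrx2* (−0.87 to −0.000527), and those of *Zeb2* and *Prrx1* turned positive under quantile normalization. Without nt control day 3 replicate 1, 2 members were called.

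By comparison, epithelial genes moved far more over the same days. Of 22 epithelial genes that SNAI and ZEB factors are known to repress, 19 were tested. At day 6, 16 of these were higher (19% of all genes), and the median change was 2.67 on the log2 scale. Genes were tested by their mean over all 16 libraries, so a gene low at day 3 could enter through its level at day 6. *Cdh1*, the adhesion molecule E-cadherin, rose by 1.97 (SE 0.22, adjusted p = 7.57e-06), from 41.5 and 29.4 to 117 and 159 CPM. *Epcam*, which encodes another epithelial adhesion molecule, rose by 3.65. Mesenchymal effector genes mostly fell, with 10 of 17 lower and 3 higher (27.1% and 19% of all genes). Of the SNAI and ZEB members, *Zeb1* fell over these days (−0.51), and *Snai1*, *Snai2* and *Zeb2* were not called. At day 6 the nt control held *Snai1* at 38.2 ± 6.74, *Snai2* at 17.3 ± 1.79, *Zeb1* at 54.2 ± 7.17 and *Zeb2* at 77.1 ± 3.06 CPM (SD, n = 2). Bulk RNA does not show whether the same cells held these and *Cdh1* RNA.

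**Figure D3:**
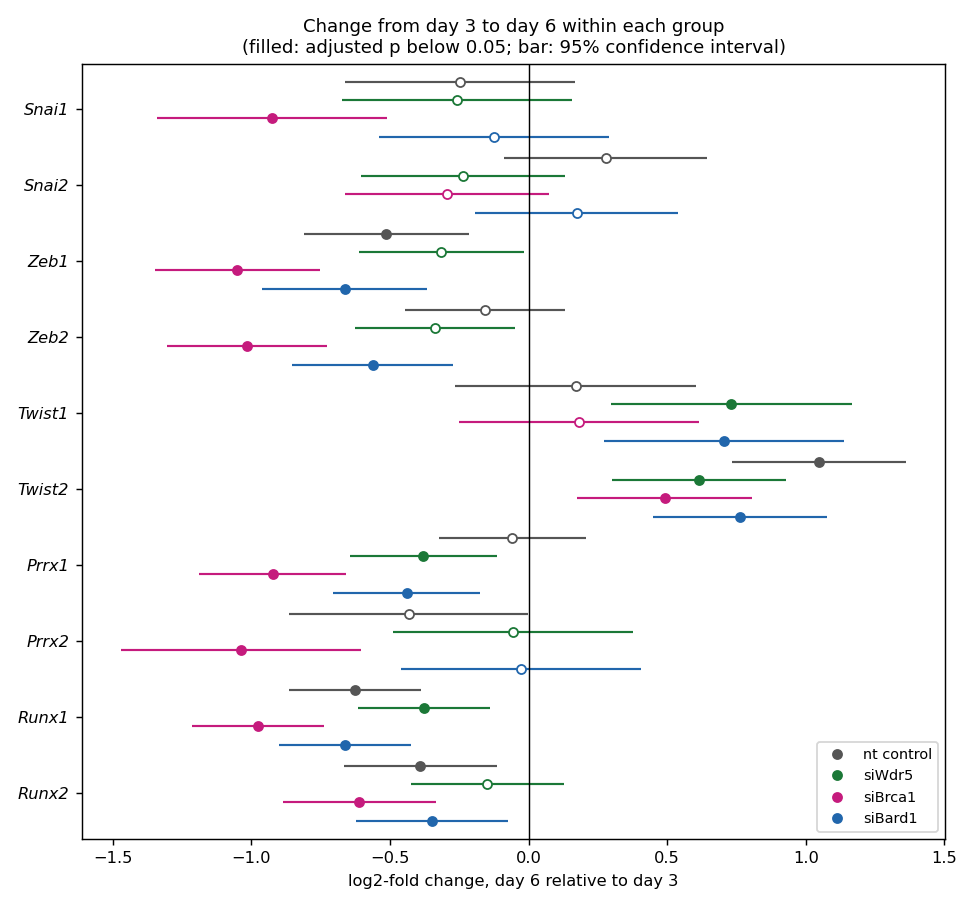
Log2-fold change from day 3 to day 6 (horizontal axis) of each member within each of the 4 siRNA groups, with 95% confidence intervals from limma. Filled points passed an adjusted p below 0.05. The siBrca1 points of *Zeb1*, *Zeb2*, *Prrx1*, *Prrx2*, *Snai1* and *Runx1* lie between −0.92 and −1.05, and all 4 points of *Twist2* lie between 0.49 and 1.05.

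In siBrca1 cells most members fell over time. From day 3 to day 6, 7 members fell (28.9% of all genes were lower) and only *Twist2* rose (20.5% were higher). *Zeb1* went from 142 and 176 to 70.0 and 83.3 CPM (−1.05, SE 0.14, adjusted p = 2.06e-05) and *Zeb2* from 146 and 194 to 74.9 and 92.4 CPM (−1.02, SE 0.14, adjusted p = 2.16e-05). *Prrx1* went from 452 and 549 to 238 and 291 CPM (−0.92, SE 0.12, adjusted p = 2.31e-05). At day 6 the siBrca1 and nt control libraries overlapped for *Zeb2* and *Prrx1*, with the second siBrca1 library above both controls for each, and for *Zeb1* they did not overlap. *Prrx2* (−1.04), *Runx1* (−0.98), *Snai1* (−0.93) and *Runx2* (−0.61) fell as well, and 7 to 9 members were called when single libraries were left out.

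In siWdr5 cells 2 members fell over time, *Prrx1* by 0.38 (adjusted p = 0.0353) and *Runx1* by 0.38 (adjusted p = 0.0226), with 10.4% of all genes lower. *Twist1* rose by 0.73 (SE 0.20, adjusted p = 0.0161) and *Twist2* by 0.62 (SE 0.15, adjusted p = 0.00701), with 14.9% higher. With 10 members, 2 falls and 2 rises are not far above these shares. Only 1 of these calls was left without siWdr5 day 3 replicate 1, without siWdr5 day 3 replicate 2 or without siWdr5 day 6 replicate 1. In siBard1 cells *Zeb1* (−0.66), *Zeb2* (−0.56), *Prrx1* (−0.44), *Runx1* (−0.66) and *Runx2* (−0.35) fell, with 17.7% of all genes lower, and *Twist1* (0.71) and *Twist2* (0.76) rose, with 17% higher. Of these 7 calls, 4 were left without siBard1 day 3 replicate 2 or without siBard1 day 6 replicate 1. A log2-fold change above 1 over time was reached by 1 member in the nt control, 0 in siWdr5, 3 in siBrca1 and 0 in siBard1, against 11.8%, 7.34%, 16% and 9.72% of all genes. *Twist2* was thus called higher at day 6 than at day 3 in all 4 groups, and it was the only member so called. The changes of *Twist1* were also positive in all 4, but they were called in siWdr5 and siBard1 alone.

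The difference between the days was tested as an interaction, the knockdown change at day 6 minus that at day 3. In siBrca1 the change shrank for *Zeb2* (−0.86, SE 0.19, adjusted p = 0.00798) and *Prrx1* (−0.86, SE 0.18, adjusted p = 0.00523), with 10.3% of all genes shifting downward by this test, 10.3% upward and 8.6% by more than 1. For 5 other members (*Snai1*, *Snai2*, *Zeb1*, *Twist2* and *Runx1*) the unadjusted p was below 0.05 with values from −0.68 to −0.35, and the adjusted p was not below the threshold. Without siBrca1 day 3 replicate 1 the count rose to 4. In siWdr5 no interaction was called (limma, 3.4% of all genes higher and 1.03% lower; 0 members at an unadjusted p below 0.05), with values from −0.51 for *Snai2* to 0.56 for *Twist1*, around a median of 0.12 over all genes. In siBard1 none was called either (limma, 0.0214% higher and 0.0285% lower; 1 member, *Prrx1*, at an unadjusted p below 0.05).

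Genes that work with these factors were examined as lists at day 3. Among mesenchymal effector genes, 16 of 17 rose in siWdr5 and in siBrca1 and 10 in siBard1, with median changes of 1.01, 0.85 and 0.55. Over all genes 18.3%, 25.4% and 8.67% rose. The largest rises were those of the contractile genes *Acta2* (1.71, 2.44 and 1.42) and *Tagln* (1.40, 2.25 and 1.45) and of the integrin gene *Itga5* (1.41, 2.09 and 1.01). Thus the smooth muscle actin gene *Acta2* stood at 671 and 832 CPM in the nt control and 3503 and 4689 CPM in siBrca1. The list shares *Col1a1*, *Col1a2* and *Col3a1* with the fibroblast markers.

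Other mesenchymal transcription factors did not move as one. Of 20 tested, 7 rose and 2 fell in siWdr5, 7 rose and 3 fell in siBrca1, and 1 rose and 1 fell in siBard1. Over all genes 18.3%, 25.4% and 8.67% rose and 16.8%, 21.8% and 5.87% fell, so that the counts in siBard1 and those that fell were no higher than this background. *Msx2*, a homeobox gene of bone and limb mesenchyme, rose in all 3 knockdowns (1.06, 1.85 and 1.22), and *Sox9*, the regulator of cartilage, rose by 1.78 in siWdr5. *Foxd1*, a gene of stromal progenitors, fell in all 3 (−1.09, −1.57 and −1.14), and *Alx1* in siWdr5 (−1.46) and *Meox2* in siBrca1 (−1.45) were lower too. The medians were 0.43, 0.20 and 0.15.

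Epithelial genes that SNAI and ZEB factors are known to repress included more that fell than rose in siWdr5 and siBrca1, but not in siBard1. Of 19 tested, 7 fell and 1 rose in siWdr5, 6 fell and 3 rose in siBrca1, and 1 fell and 1 rose in siBard1. Over all genes 16.8%, 21.8% and 5.87% fell and 18.3%, 25.4% and 8.67% rose. *Cdh1* fell by 1.46 in siWdr5 (SE 0.20, adjusted p = 0.00015) and by 1.46 in siBrca1 (SE 0.20, adjusted p = 8.26e-05), to 12.6 and 12.7 CPM and to 15.99 and 10.05 CPM, while in siBard1 its change was −0.44 and did not pass. *Epcam* fell by 1.93 and 1.46 in siWdr5 and siBrca1. *Marveld3* fell by 1.57 and 1.78 in the same 2 knockdowns, and the gene that fell in siBard1 was *Dsp* (−0.82). Among those that rose were *Cdh3*, in siBrca1 (0.96), and the keratin genes *Krt19*, in all 3 knockdowns (0.59, 0.54 and 0.42), and *Krt18*, in siBrca1 (1.04). The related gene *Krt8*, named after its values were seen, fell in siWdr5 (−1.23, adjusted p = 0.0253). At day 6, 8 of the 19 were lower in siWdr5 (5.7% of all genes).

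The partners, corepressors and inhibitors of these factors moved in both directions. Of 19 tested, 5 rose and 1 fell in siWdr5, 5 rose and 6 fell in siBrca1, and 2 rose and 1 fell in siBard1. Over all genes 18.3%, 25.4% and 8.67% rose and 16.8%, 21.8% and 5.87% fell, so that the shares that rose in siBrca1 and in siBard1 were close to this background. The inhibitors of helix-loop-helix proteins were among those that rose: *Id4* by 0.95, *Id3* by 0.87 and *Id1* by 0.62 in siWdr5, and by 0.70, 0.96 and 0.64 in siBrca1. *Cbfb*, the partner that RUNX proteins need for stable DNA binding, fell in siBrca1 (−0.55, SE 0.12, adjusted p = 0.00235), from 81.27 and 81.35 to 63.05 and 48.95 CPM, opposite to *Runx1* and *Runx2* themselves. The histone methyltransferase gene *Ezh2* fell in siBrca1 (−0.80) and siWdr5 (−0.39). Osteogenic genes downstream of *Runx2* were few: of 6 tested, 5 rose in siWdr5, 3 in siBrca1 and 1 in siBard1. *Sp7*, the bone regulator downstream of *Runx2*, rose by 1.67 in siWdr5 and 1.14 in siBrca1 but remained low, at 5.61 and 6.64 CPM in siWdr5. The collagenase gene *Mmp13* rose in siWdr5 (2.11, adjusted p = 0.000204).

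**Figure D4:**
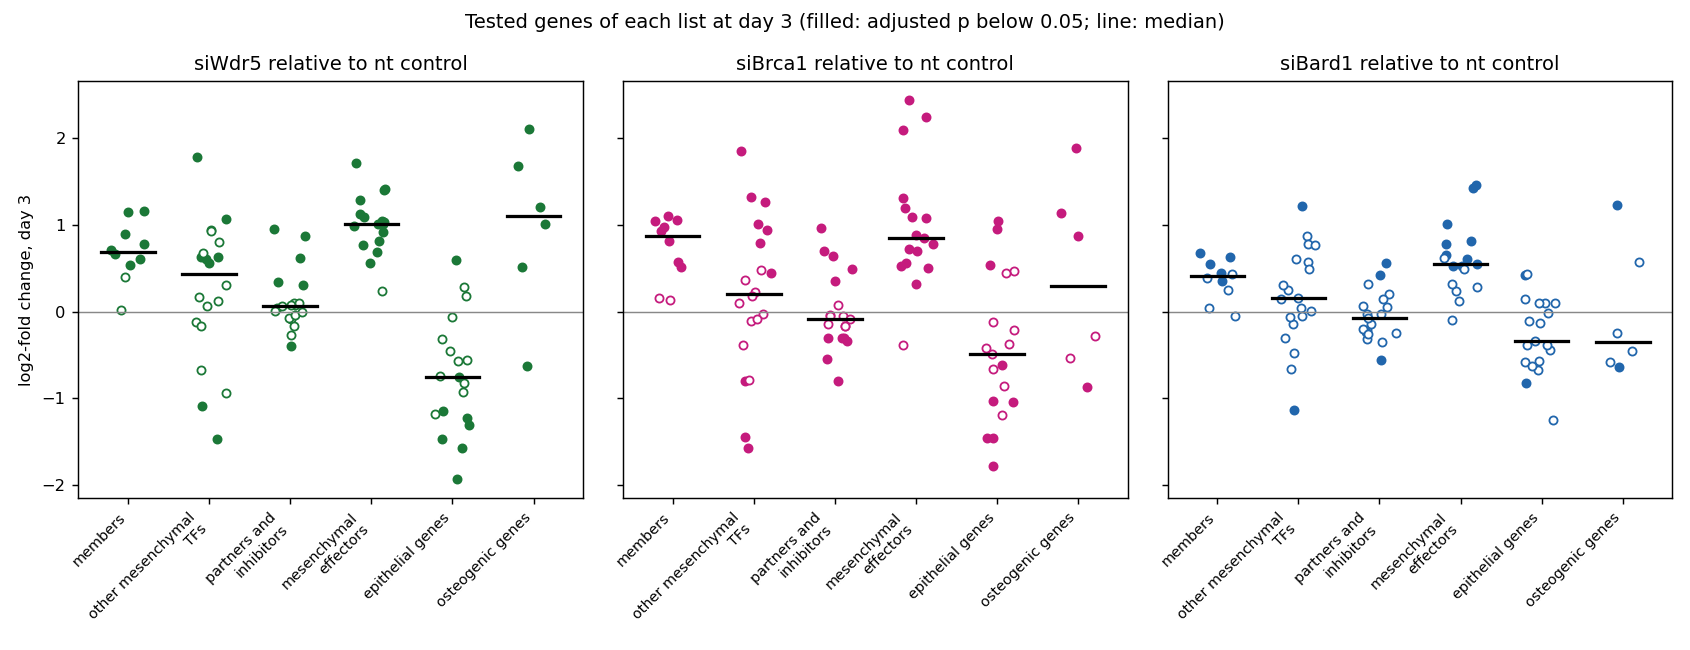
Log2-fold change at day 3 relative to the nt control (vertical axis) of the tested genes of each list in siWdr5, siBrca1 and siBard1. Each point is a gene, filled where the adjusted p was below 0.05, and the line is the median of the list. Mesenchymal effectors have medians of 1.01, 0.85 and 0.55, epithelial genes medians of −0.75, −0.48 and −0.34.

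Across the 16 libraries, with the mean of each day subtracted, the members other than the Twist genes varied together. The 28 pairs among these 8 members had Pearson correlations of 0.63 to 0.97 (median 0.86), and the 16 pairs of a Twist gene with another member had 0.05 to 0.71 (median 0.39). *Runx1* and *Runx2* were most alike (r = 0.97), followed by *Snai1* and *Prrx2* (r = 0.94). Of the other paralog pairs, *Zeb1* and *Zeb2* had r = 0.91, *Snai1* and *Snai2* r = 0.88, *Prrx1* and *Prrx2* r = 0.72 and *Twist1* and *Twist2* r = 0.16. The correlations are descriptions over libraries that share 4 groups per day. Differences between the groups were kept, so the correlations partly restate the knockdown changes and are not separate evidence for them. The division into Twist genes and others is that of the day 3 calls in siWdr5 and siBrca1. No distribution over all gene pairs is given here.

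**Figure D5:**
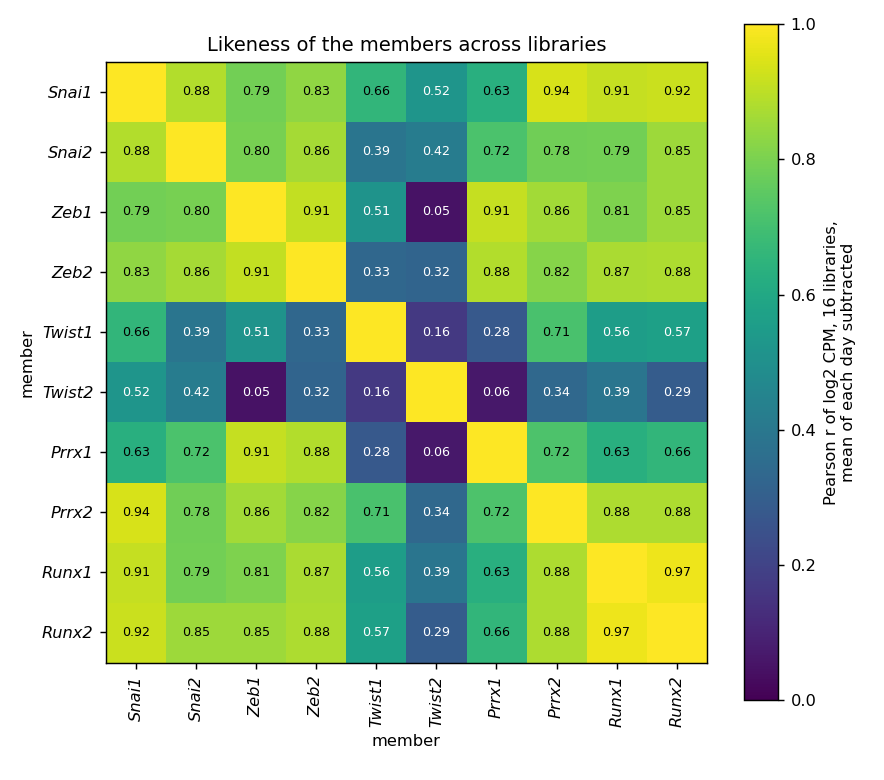
Pearson correlation of log2 CPM between members (both axes) over 16 libraries after the mean of each day was subtracted, printed in each square and shown by colour from 0 to 1. The rows of *Twist1* and *Twist2* are the darkest, with values from 0.05 to 0.71.

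The genes most like each member over all tested genes were determined in the same way. *Runx2* was the gene most like *Runx1*, and the most like *Runx2* were *Fat1* (r = 0.98), *Aff1* and *Arid5b*. *Snai1* was closest to *Tsku*, *Plod3* and *Ckap4* (r = 0.98 for each), *Snai2* to *Btg1*, *Bcl6* and *Tbx3* (r from 0.95 to 0.96), *Zeb1* to *Cobll1*, *Msrb3* and *Ddr2* (r from 0.97 to 0.98) and *Zeb2* to *Utrn*, *Fam114a1* and *Sytl2* (r from 0.97 to 0.98). For *Prrx1* these were *Wdfy1*, *Cpe* and *Dstn* (r from 0.97 to 0.98) and for *Prrx2* *Selenow*, *Zyx* and *Atoh8* (r from 0.98 to 0.99). The closest genes of *Twist1*, at lower correlation, were *Pfn1* (r = 0.91), *Zbed3* and *Cfl1*, and those of *Twist2* were *Ninj1* (r = 0.82), *Tmem132a* and *Cfp*.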

How the data were processed

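RNA of 16 mouse libraries was sequenced after depletion of ribosomal RNA, with 2 libraries for each of 4 siRNA groups at day 3 and day 6; per the study's methods the libraries of a group come from independent experiments. The authors aligned paired-end reads to mm10 with STAR 2.5.2b and computed log-CPM with edgeR 3.20.9. The deposited values are log2 CPM with a prior count; the read counter, its strand setting, the annotation and the filter are not given in the sources used here. CPM in the text is 2 to the power of the deposited value, and its library size is not the plain read total. The size implied by the values was 1.51e+07 in siWdr5 day 3 replicate 2, whose recovered reads numbered 16289861. In siBard1 day 3 replicate 2 it was 1.92e+07, with 17215650 recovered reads. The values could be turned back into whole reads (100% within 0.01), which gave 11169738 to 26832534 reads per library; 3 reads, the floor, are 0.115 to 0.26 CPM. Levels per kilobase use merged exons of GENCODE vM21.

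The 14028 genes of 18990 whose log2 CPM averaged at least 0 were tested with limma 3.58.1 (R 4.3.3; moderation with a trend, two-sided, Benjamini-Hochberg adjustment over all genes tested, called at adjusted p below 0.05). Comparisons within a day used its 8 libraries, and courses and interactions all 16, with 1 mean per group. The authors' own test used their read counts, whereas reads here were recovered from the log2 values. Alternatives were other filters, libraries, scalings and pseudocounts, no trend, limma-voom on recovered reads, a replicate block, an added fold threshold and leaving out each library. The steps were tested on simulated data. All members are named. Named list genes were taken from the up to 3 called genes per direction with the largest change in each day 3 comparison. Not all of these are named. *Wdr5*, *Brca1*, *Bard1* and *Cdh1* are named as well, with repeats of these genes at other days. Values of named list genes at other days, and of *Runx2*-related and target genes per library, were chosen after they were seen. Falls within the osteogenic list are not reported here. The members and lists were chosen with earlier results of these data known. Introduced *Oct4*, *Sox2*, *Klf4* and *c-Myc* and the cells' own copies cannot be told apart and were not analysed here.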

Additional observations from a re-analysis of the deposited data

Results flagged for a closer look

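The size of the siBrca1 change differed between day 3 and day 6 for 2 members by the interaction test. By this test 10.3% of all genes shifted downward and 10.3% upward. With 10 members, 2 are not far above these shares. For *Zeb2* the change relative to the nt control was 0.97 at day 3 and 0.11 at day 6, a difference of −0.86 (SE 0.19, limma, adjusted p = 0.00798). For *Prrx1* it was 1.05 and 0.19, a difference of −0.86 (SE 0.18, limma, adjusted p = 0.00523). Both stayed below an adjusted p of 0.05 under all 16 alternatives run for them, with the adjusted p at most 0.0452 for *Zeb2* and at most 0.0313 for *Prrx1*. The change of *Brca1* RNA in siBrca1 was −1.57 at day 3 and 0.01 at day 6 (adjusted p = 0.988). The part of the target's level in this difference was not tested.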

How the results depend on the processing

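The counts of members called at day 3 were 8 or 9 in siWdr5 and 8 in siBrca1 under every alternative that keeps the threshold (8 to 8 for both without single libraries). Requiring a log2-fold change above 1 left 2, 3 and 0 members in siWdr5, siBrca1 and siBard1 at day 3 and 2 in siWdr5 at day 6; 1, 0, 3 and 0 in the courses of nt control, siWdr5, siBrca1 and siBard1; 0 in the siBrca1 interaction; and 0 in each comparison between knockdowns. The siBard1 count at day 3 (5) was 3 with no filter, 3 in a model of all 16 libraries, 2 with no trend and 1 to 4 when single libraries were left out. At day 6 the siWdr5 count (7) ranged from 0 to 7 without single libraries, and the siBard1 count (0) was 1 with all 16 libraries and 0 to 1 without single libraries. For the courses, leaving out libraries gave 2 to 4 in the nt control, 1 to 4 in siWdr5 (2 under quantile normalization) and 4 to 5 in siBard1. The siBrca1 interaction count (2) was 4 after median centring and 2 to 4 without single libraries.

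Comparisons between knockdowns were the least stable. The count for siWdr5 against siBrca1 at day 3 (2) gave 1 with no filter, with all 16 libraries and after median centring, 0 with no trend or only the 4 libraries compared, and 0 to 3 without single libraries. For siWdr5 against siBard1 (3) these were 1 with no filter, 0 with no trend, 5 after median centring and 0 to 2 without single libraries, and for siBrca1 against siBard1 (5) 1 with no filter, 3 with all 16 libraries, 0 with no trend, 2 after quantile normalization, 1 with only the 4 libraries and 0 to 6 without single libraries. At day 6, siWdr5 against siBrca1 (2) gave 1 with no filter, 5 with all 16 libraries, 0 with no trend or quantile normalization and 0 to 1 without single libraries, and siWdr5 against siBard1 (0) gave 2 with all 16 libraries.

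Replicate numbers are shared between groups, but libraries with the same number did not deviate together in every pair of groups (r from −0.09 to 0.07 at day 3 and from −0.07 to 0.26 at day 6). Adding a replicate block, the count of siWdr5 against siBrca1 at day 6 was 4, and the block moved no other count of members by more than 1.5 times.

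Directions reversed for small changes. *Twist1* in siWdr5 at day 3 was −0.0192 under quantile normalization and −0.0903 to 0.131 without single libraries (negative without nt control replicate 2, or siWdr5 replicate 1 at −0.0601). In siBrca1, *Twist1* was −0.00444 to 0.278 at day 3 (negative without siBrca1 replicate 1) and −0.24 to 0.539 at day 6 (negative without nt control replicate 2). In siBard1 at day 3 it was −0.208 to 0.116 (positive without nt control replicate 1, at 0.065, or siBard1 replicate 2). *Twist2* in siWdr5 at day 6 was −0.105 to 0.0313 (positive without nt control replicate 1, at 0.000115, or siWdr5 replicate 2), and *Zeb2* in siBrca1 at day 6 was −0.0409 to 0.263 (negative without siBrca1 replicate 2). In the nt control course *Zeb2* was 0.0868 and *Prrx1* 0.157 under quantile normalization, and *Twist1* was −0.22 to 0.559 (negative without day 6 replicate 1). The causes were not tested. With 2 libraries per group, p-values rest on a spread that the groups share, and a library left alone in its group was assumed to vary like the others.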

Other observations

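The summed *Des* and *Chrna1* level, described above for day 3, was also spread over the groups at day 6, at 16.8 to 20.3 CPM in the nt control, 51.9 to 67.8 CPM in siWdr5, 35.7 to 39.9 CPM in siBrca1 and 23.4 to 44.3 CPM in siBard1. Neural crest and glia markers summed to at most 19.04 CPM and osteoblast markers to at most 9.47 CPM in any library.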
